A study of Homo sapiens with 32 samples.

Results

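Transcript levels of 40 interferon-stimulated genes were followed in an esophageal epithelial line as it went from flat culture to 3D spheroids, with and without interleukin 13 (IL-13). The genes were chosen as a list of symbols and not by their measured values, and all 40 were found among the 19345 symbols of the deposited table. The cells were EPC2, a human esophageal epithelial line immortalised with telomerase (hTERT), so the libraries describe 1 line and not several donors. Total RNA was sequenced from 32 libraries in 4 groups. The first group was 6 libraries of day 11 (D11) spheroids that had received IL-13, a type 2 cytokine, at 20 ng/ml between day 3 and day 11. The second was 7 libraries of untreated D11 spheroids, the third was 9 libraries of untreated day 3 (D3) spheroids, and the fourth was 10 libraries of monolayer cells taken at day 0, before they were seeded. All spheroids grew from EPC2 cells in Matrigel with calcium-supplemented keratinocyte serum-free medium, so spheroids and monolayers differed in medium and matrix as well as in shape. The labels place the libraries in 2 independent experiments, called batch 1 and batch 2. Batch 2 held 5 monolayer, 5 D3 and 3 untreated D11 libraries, and batch 1 held 5 monolayer, 4 D3 and 4 untreated D11 libraries. The IL-13 columns could be matched to their group but not to single samples, of which the labels put 1 in batch 2 and 5 in batch 1.

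Interferons are secreted proteins that warn cells of infection. Type I and type III interferons bind receptors that activate STAT2, which joins IRF9 in a complex called ISGF3. That complex binds the interferon-stimulated response element (ISRE) in the promoters of its target genes, while interferon gamma acts mainly at the gamma-activated site (GAS) and through IRF1. The targets sense viral RNA, degrade it, block virus entry or exit, tag proteins with the ubiquitin-like ISG15, or feed back on the pathway.

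Of the 40 genes, 34 had a RefSeq promoter window (GRCh38.p14, from 250 bases before to 50 bases after the annotated start), with DDX58 listed under its newer symbol RIGI. IFIT2, MX2, OAS2, OASL, IRF7 and USP18 had none. An ISRE core, GAAA followed after any 2 bases by a second GAAA, on either strand, was found in 23 of the 34 (67.6%), against 4.38% of all 27305 symbols with a window. The GAS letters TTCNNNGAA were found in 10 of the 34 (29.4%), against 9.38% of all symbols. A match of letters describes the sequence and does not show binding. The 7 ISRE stretches below belong to genes that differed in their course or their level in the spheroids. IFI6, IFI27 and IFITM1 were higher in untreated D11 than in D3 spheroids, and ISG15 and IFIT5 were lower. In all spheroids IFIT1 was at most 0.3 TPM and CXCL10 at most 2.1 TPM. The IRF1 stretch shows a GAS match. They are the ISG15 stretch at chr1:1013359-1013424 (plus strand), the IFI6 stretch at chr1:27672251-27672373 (minus strand), the IFI27 stretch at chr14:94110603-94110675 (plus strand), the IFIT1 stretch at chr10:89392482-89392554 (plus strand), the IFIT5 stretch at chr10:89414498-89414567 (plus strand), the IFITM1 stretch at chr11:313975-314034 (plus strand), the CXCL10 stretch at chr4:76023684-76023743 (minus strand) and the IRF1 stretch at chr5:132490864-132490922 (minus strand). All lie upstream of a RefSeq start. The ISG15, IFI27 and IFITM1 stretches lie inside the span that GENCODE 29 gives these genes on hg38, which begins further upstream. Sequences run 5′ to 3′ on the strand of the gene, and capitals mark the matches, with the ISRE core reading TTTC in both parts where it lies on the other strand.
ISG15: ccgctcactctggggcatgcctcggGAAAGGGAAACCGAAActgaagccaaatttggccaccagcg
IFI6: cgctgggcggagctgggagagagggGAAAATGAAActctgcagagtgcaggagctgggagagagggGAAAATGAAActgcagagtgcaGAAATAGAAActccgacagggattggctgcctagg
IFI27: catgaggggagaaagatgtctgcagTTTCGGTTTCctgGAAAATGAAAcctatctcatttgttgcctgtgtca
IFIT1: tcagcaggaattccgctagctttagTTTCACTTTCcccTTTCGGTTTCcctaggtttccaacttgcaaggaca
IFIT5: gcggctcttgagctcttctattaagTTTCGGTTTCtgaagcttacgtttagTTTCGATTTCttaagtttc
IFITM1: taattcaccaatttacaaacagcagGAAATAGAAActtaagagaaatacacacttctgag
CXCL10: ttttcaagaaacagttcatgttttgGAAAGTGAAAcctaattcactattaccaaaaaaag
IRF1: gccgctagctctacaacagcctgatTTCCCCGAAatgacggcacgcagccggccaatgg
IFI6 has 3 separate cores in its stretch, ISG15 has 2 that overlap, and IFIT1, IFI27 and IFIT5 show 2 each. IFITM1 and CXCL10 show 1 each. The core letters were present in genes that were higher at D11 and in genes that were lower.

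Values are TPM, the share of a library's transcripts corrected for transcript length, which the authors rounded to 1 decimal. TPM does not record how many reads a library had, and without a depth counting intervals were not possible. Differences are on the scale of log2(TPM + 1), which understates the change of low genes, and are given ± their standard error (SE). Calls are at an adjusted p under 0.05 from limma, fitted over the 12221 genes that reached 1 TPM in 6 or more libraries. Of the 40 genes, 31 passed this filter, and a gene that passed only through the group in which it is high had to differ. IFI44L, IFIT1, IFIT2, IFIT3, MX2, RSAD2, HERC5, EPSTI1 and CMPK2 did not pass and are described by their values. Nothing in the labels says that the libraries of 1 batch came from separate cultures, so the p-values measure the spread between libraries, which may be technical.

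The libraries fell into the labelled groups with 3 exceptions. On the first principal component, D3 library 4 of batch 1 lay at 10.5 and D3 library 7 of batch 2 at -24.5, each among the D3 libraries of the other batch. IL-13 library 1 lay at 78.2, against 49.4 to 56.7 for the other 5. Untreated D11 libraries lay at 71.4 to 76 in batch 2 and 60.2 to 65.1 in batch 1. The labels put 1 IL-13 sample in batch 2, and whether library 1 is that sample could not be told. What sets library 1 apart can therefore not be told apart from batch. Results that rest on D3 libraries 4 and 7 or on IL-13 library 1 are given with and without them. Mitochondrially encoded transcripts took 13.2 to 25.6% of the TPM in IL-13 D11, 14.8 to 27.9% in untreated D11, 39.1 to 57.1% in D3 and 44.8 to 50.1% in monolayer libraries. The squamous markers were present, with 7 of 8 at 1 TPM or more in every spheroid library and 4 of 8 in every monolayer. Of 12 leukocyte markers, 3 reached 1 TPM in every D3 library, CD68, CSF1R and CD14, and the sum of the list was 436.1 to 560.2 TPM in IL-13 D11, 522.3 to 588.3 TPM in untreated D11, 221.6 to 268.2 TPM in D3 and 196.8 to 285.0 TPM in monolayer libraries. PTPRC, which defines leukocytes, was at 0 in all monolayer and D3 libraries and at most 0.1 TPM at D11. The endothelial marker PECAM1 was at 0 in all libraries, while the endothelial sum was 4.0 to 13.4 TPM with IL-13, nearly all of it CLDN5, and at most 0.3 TPM elsewhere. Of 7 fibroblast markers 1, COL1A1, was measured above 1 TPM, and the sum was 22.0 to 46.9 TPM in IL-13 D11, 58.0 to 78.1 TPM in untreated D11, 8.1 to 30.4 TPM in D3 and 3.4 to 9.6 TPM in monolayer libraries. The monolayer batches did not overlap in the leukocyte sum (252.8 to 285.0 TPM in batch 2, 196.8 to 202.4 TPM in batch 1). Nor did they in the fibroblast sum (7.0 to 9.6 and 3.4 to 5.0 TPM) or the squamous sum (19057.6 to 19509.4 and 20057.9 to 23759.6 TPM). The part of these markers and of the mitochondrial share in the comparisons between ages, between batches and with IL-13 was not tested beyond the counts with mitochondrial transcripts removed. None of 19 housekeeping genes and none of 79 ribosomal protein genes was listed at 0 across a whole group. Genes of the IFIT, IFITM, OAS and MX families have close relatives, and how the authors' counting shared reads among them is not given in the sources used here.

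The 40 genes together were highest in the batch 2 monolayers, and their sum was lower in every spheroid than in any monolayer. Their summed level was 270.9 to 455.2 TPM in IL-13 D11 spheroids. It was 283.4 to 350.9 TPM in untreated D11 spheroids of batch 2 and 333.2 to 421.1 TPM in those of batch 1. D3 spheroids lay at 306.7 to 395.8 TPM in batch 2 and 297.0 to 397.6 TPM in batch 1. Monolayers lay at 1312.7 to 1354.9 TPM in batch 2 and 492.0 to 516.7 TPM in batch 1. By this sum the monolayer batches did not overlap with each other or with any spheroid group, whereas the spheroid groups overlapped with one another. The overlap of the IL-13 group rested on library 1, since the other 5 lay at 429.1 to 455.2 TPM, above every untreated D11 and D3 library. The sum follows the abundant genes. By the median log2(TPM + 1) over the 40 genes, batch 1 monolayers (1.74 to 2.00) overlapped with D3 spheroids (1.10 to 1.89). They lay below the IL-13 libraries other than library 1 (2.28 to 2.49). Batch 2 monolayers were highest by the median too (3.88 to 3.96). IFITM3, which restricts virus entry at the endosome, had the highest median of the 40 genes in monolayers and D3 spheroids of both batches. At D11 its level was close to those of IRF9 and IRF7, both transcription factors of the pathway. IFIT2 was listed at 0 in all libraries but 1, a batch 2 monolayer at 0.2 TPM. In bulk RNA, fewer cells carrying a transcript and less of it per cell cannot be told apart.

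**Figure D1:**
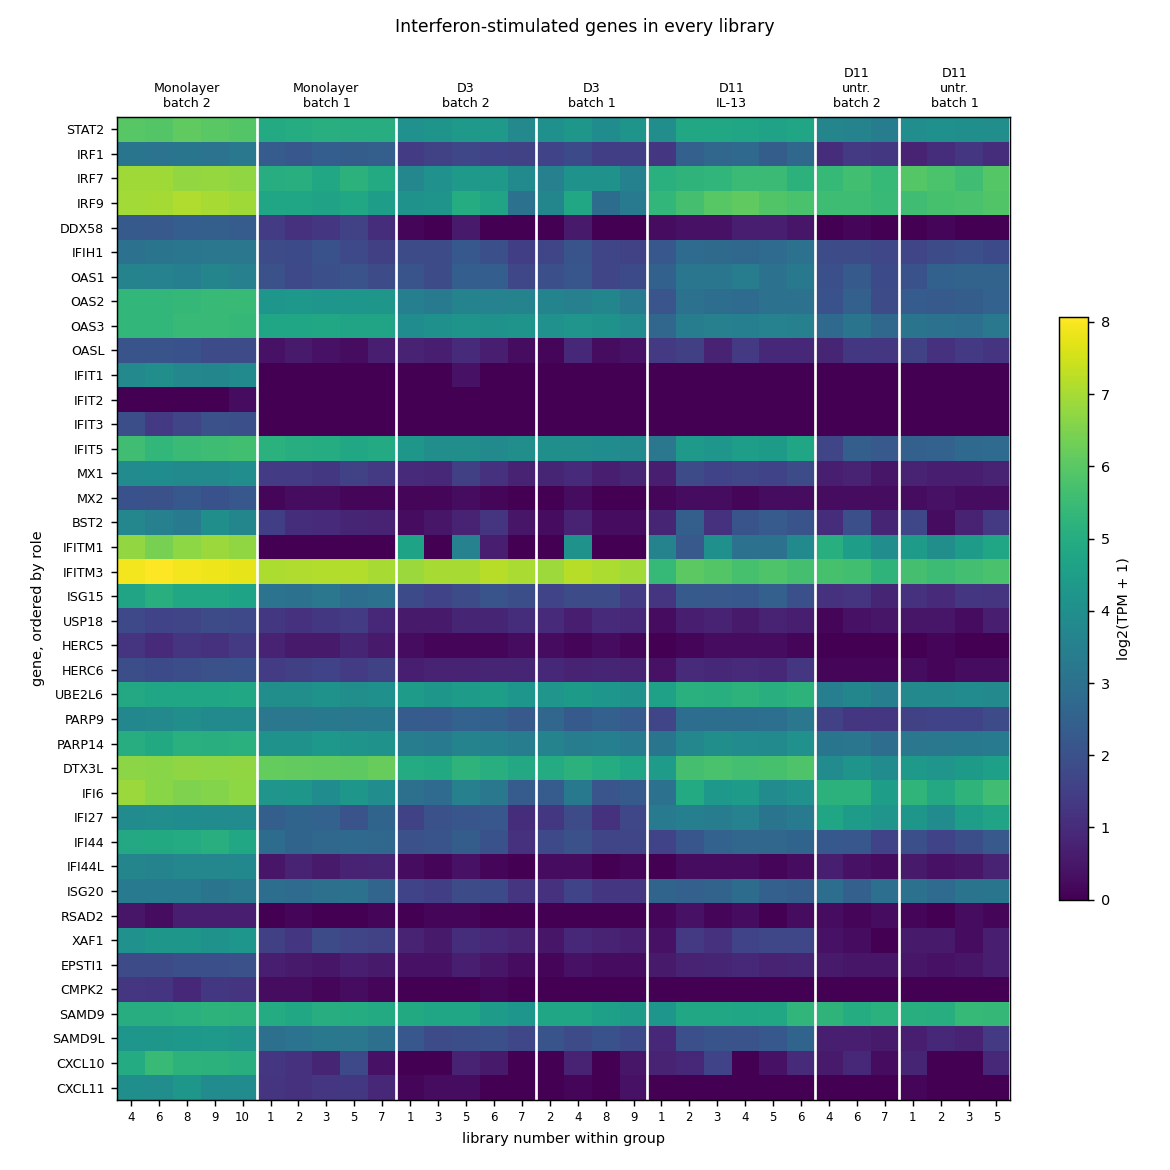
Level of the 40 interferon-stimulated genes, as log2(TPM + 1), in each of the 32 libraries (columns, by group and batch, monolayer first), with 1 gene per line. The batch 2 monolayers are the brightest block for nearly all genes (brighter is higher), and several genes listed at or near 0 elsewhere, such as IFIT1, IFI44L and CXCL11, are seen there.

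The batch 2 monolayers carried more of nearly every gene than the batch 1 monolayers. Of the 31 genes tested, 30 were higher in batch 2 and none was lower. The exception was SAMD9, a growth-restricting antiviral protein, at 31.7 to 36.1 TPM in batch 2 and 27.8 to 31.7 TPM in batch 1 (difference 0.15, limma adjusted p = 0.335). Over all 12221 genes, 24.7% were higher and 31.7% lower. The median difference was 1.18 over the 31 genes and -0.03 over all genes. The 5 libraries of batch 2 all lay above the 5 of batch 1 for 30 of the 31 genes, as did 24.3% of all genes. Of the 31, 28 would pass the filter without the batch 2 monolayers, and 27 of those were higher in batch 2. CXCL10, CXCL11 and DDX58 would not pass. With no filter on low values, 38 of the 40 genes were higher in batch 2 (18.8% of all genes), and SAMD9 and IFIT2 were not called.

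Among the tested genes with a value above 0 in every monolayer, the chemokines CXCL10 and CXCL11 differed the most. Neither would pass the filter without the batch 2 monolayers, so a difference was favoured in advance and their p-values give no independent support. CXCL10, which draws T cells through CXCR3, measured 30.0, 42.1, 35.8, 35.1 and 33.0 TPM in the batch 2 monolayers, against 1.4, 1.2, 0.8, 2.4 and 0.3 TPM in those of batch 1. Every batch 2 library lay far above every batch 1 library, and the difference was 4.09 ± 0.26 (limma adjusted p = 4.07e-13). CXCL11, a ligand of the same receptor, measured 13.7 to 18.1 TPM in batch 2 and 0.9 to 1.5 TPM in batch 1 (difference 2.83 ± 0.079, limma adjusted p = 2.54e-21). IFITM1, which restricts virus entry at the plasma membrane, measured 106.4, 84.3, 102.6, 115.7 and 105.6 TPM in the batch 2 monolayers and was listed at 0 in all 5 of batch 1. IFIT1, which binds viral RNA that lacks the cap methylation of the host, had the same all-or-none pattern. It measured 13.0, 15.0, 12.2, 11.9 and 13.2 TPM in batch 2 and was listed at 0 in batch 1. IFIT3, its partner, measured 1.6 to 3.0 TPM in batch 2 and was listed at 0 in batch 1.

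The transcription factors showed the same order of batches. IRF9 measured 121.6, 124.4, 137.0, 128.1 and 118.6 TPM in the batch 2 monolayers, against 25.9, 25.5, 24.1, 27.0 and 21.4 TPM in those of batch 1 (difference 2.30 ± 0.26, limma adjusted p = 2.93e-08). IRF7, which amplifies interferon production, measured 120.1, 120.1, 107.7, 110.6 and 103.8 TPM in batch 2, against 31.5, 32.2, 27.3, 35.5 and 29.4 TPM in batch 1. STAT2, the ISGF3 subunit that carries the activation domain, averaged 62.1 ± 3.66 TPM in batch 2 and 31.3 ± 1.52 TPM in batch 1 (SD, n = 5 each). IRF1 averaged 7.74 ± 0.351 TPM in batch 2 and 4.12 ± 0.311 TPM in batch 1 (SD, n = 5 each). For all 4 factors the batches did not overlap. The gap was larger for IRF9 and IRF7 than for STAT2 and IRF1, whose differences were 0.97 and 0.77.

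Among the effectors, MX1, a dynamin-like GTPase that blocks influenza and other viruses, measured 13.9, 14.1, 13.5, 13.6 and 14.5 TPM in the batch 2 monolayers, against 1.7, 1.7, 1.5, 2.0 and 1.6 TPM in those of batch 1 (difference 2.47 ± 0.15, limma adjusted p = 1.06e-13). BST2 (tetherin), which holds budding virions at the surface, measured 12.3, 10.5, 8.8, 15.1 and 12.0 TPM in batch 2, against 1.8, 1.1, 1.0, 0.8 and 0.7 TPM in batch 1. ISG15 measured 25.3, 32.3, 27.0, 26.7 and 24.8 TPM in batch 2, against 7.4, 7.0, 8.1, 6.6 and 7.1 TPM in batch 1. None of these 3 genes overlapped between batches. IFI6, a small interferon-induced membrane protein, measured 90.8 to 113.4 TPM in batch 2 and 14.3 to 18.4 TPM in batch 1 (difference 2.52 ± 0.25, limma adjusted p = 2.23e-09). XAF1, a pro-apoptotic partner of XIAP, measured 16.1 to 18.3 TPM in batch 2 and 1.4 to 2.6 TPM in batch 1. IFI44L, which did not pass the filter, measured 11.1 to 12.5 TPM in batch 2 and 0.4 to 0.8 TPM in batch 1 (difference 3.01 with no filter). MX2 measured 3.0 to 3.7 TPM in batch 2 and 0.1 to 0.2 TPM in batch 1. Smaller gaps were seen for IFIT5, at 39.4 to 47.9 TPM in batch 2 and 27.6 to 34.8 TPM in batch 1 (difference 0.53, limma adjusted p = 0.0104), and for ISG20, an RNA exonuclease, at 7.6 to 9.3 TPM in batch 2 and 5.2 to 7.2 TPM in batch 1 (difference 0.40, limma adjusted p = 0.00533).

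**Figure D2:**
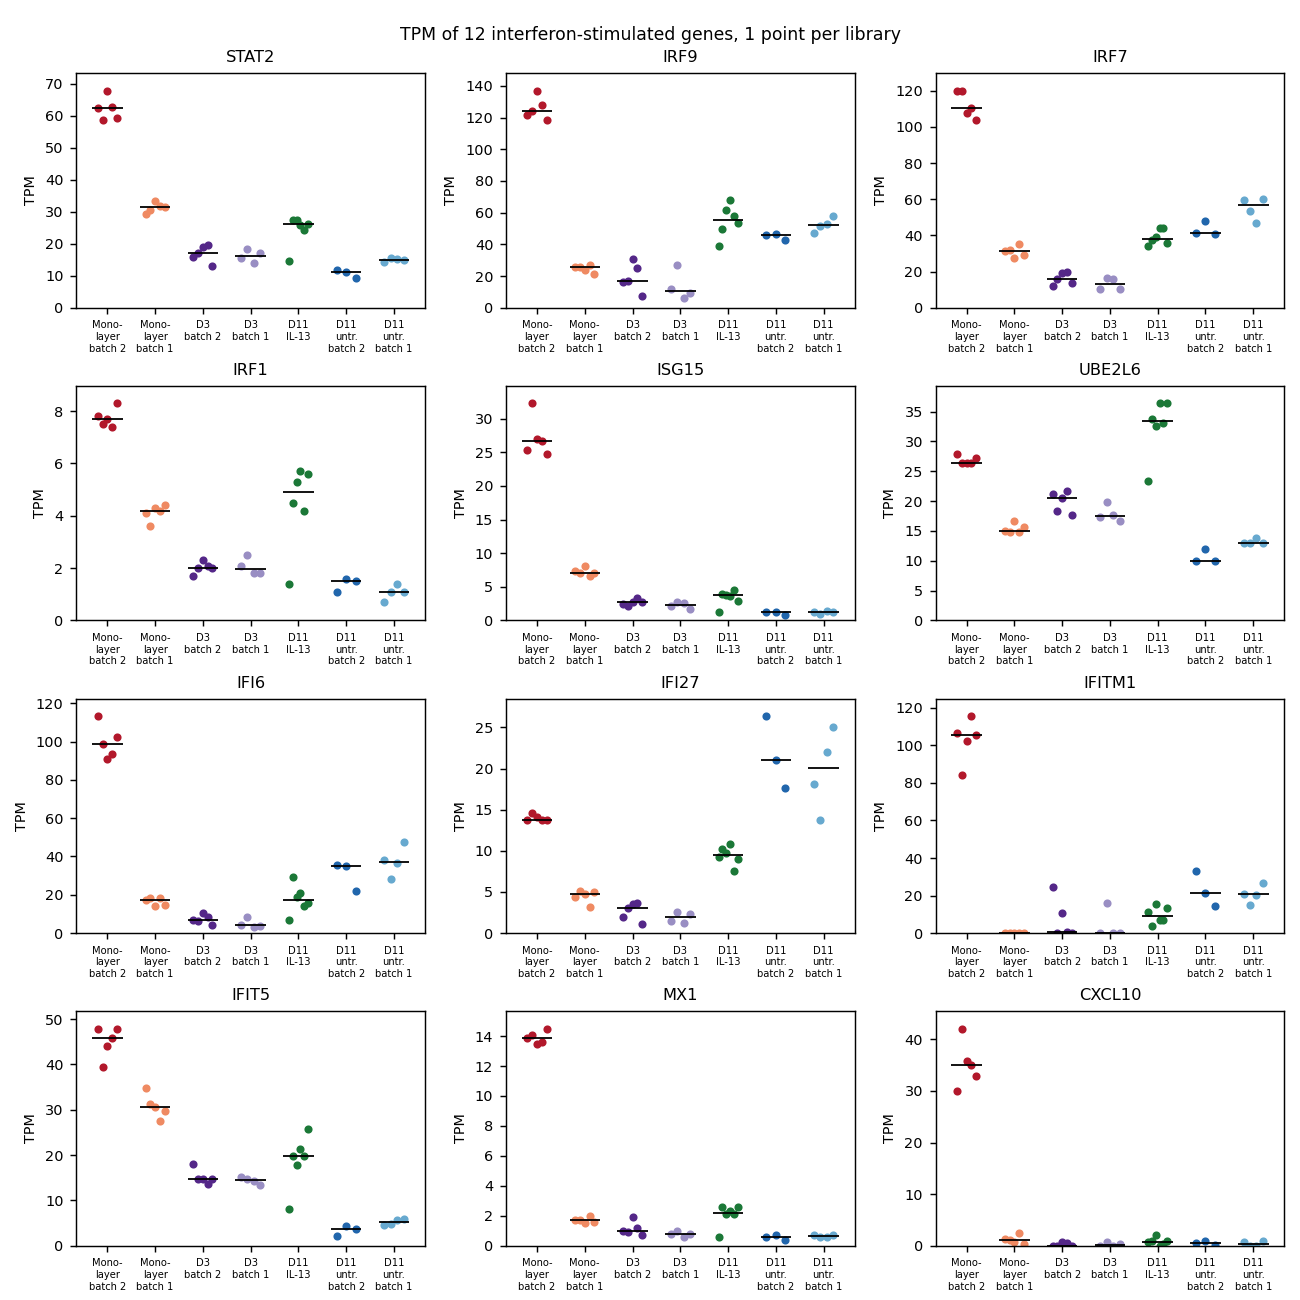
TPM of 12 interferon-stimulated genes in each library (points), by group and batch, with the median of each group and batch as a black line. In all 12 panels the batch 2 monolayers lie above every D3 library, though for UBE2L6 the batch 2 difference is not called after rescaling. In 10 they lie above every spheroid library, while UBE2L6 has its highest median with IL-13 and IFI27 in untreated D11 spheroids.

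In D3 spheroids nearly all of the 31 genes were lower than in monolayers. Averaged over the batches, 30 were lower and none was higher, at a background of 70.6% lower and 13.5% higher over all genes. The median difference was -1.42 over the 31 genes and -0.44 over all genes. UBE2L6 was the gene not called (difference -0.11, limma adjusted p = 0.104). Of the 26 genes that would pass the filter on spheroid libraries alone, 25 were lower, and with no filter 38 of the 40 were lower (55.3% of all genes). CXCL10, CXCL11, DDX58, USP18 and HERC6 would not pass on spheroid libraries alone. Rescaling the libraries by the median of gene ratios moved the all-gene median by 0.44. It left 28 of the 31 lower and 1 higher, at a background of 35.7% lower and 35.3% higher. The shift reversed UBE2L6 (0.41, called higher) and took the call from IFITM3 and SAMD9.

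The size of this fall depended on the batch. In batch 2, all 31 genes were lower in D3 spheroids than in monolayers (61.2% of all genes lower, 14.5% higher), with a median of -1.83, and for all 31 every D3 library lay below every monolayer, as for 54.5% of all genes. In batch 1, 25 were lower and 1 was higher (65.8% and 10.5% of all genes), with a median of -0.77. For 21 of the 31 every batch 1 D3 library lay below every batch 1 monolayer, as for 59.2% of all genes, and for 1 every D3 library lay above, as for 8.57%. The change in batch 2 was more negative than in batch 1 for 27 of the 31 genes by the interaction test. This test equals the batch difference in D3 spheroids minus that in monolayers, whose medians over the 31 genes were 0.07 and 1.18. It is therefore not independent of the comparison of monolayer batches above. Over all genes the interaction was negative for 16.2% and positive for 20.1%. ISG20, SAMD9, DTX3L and IFIT5 were the 4 not called. With D3 libraries 4 and 7 left out, 27 passed the interaction test, all negative (13.9% of all genes negative), and 30 were lower over both batches (70.6% of all genes).

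**Figure D3:**
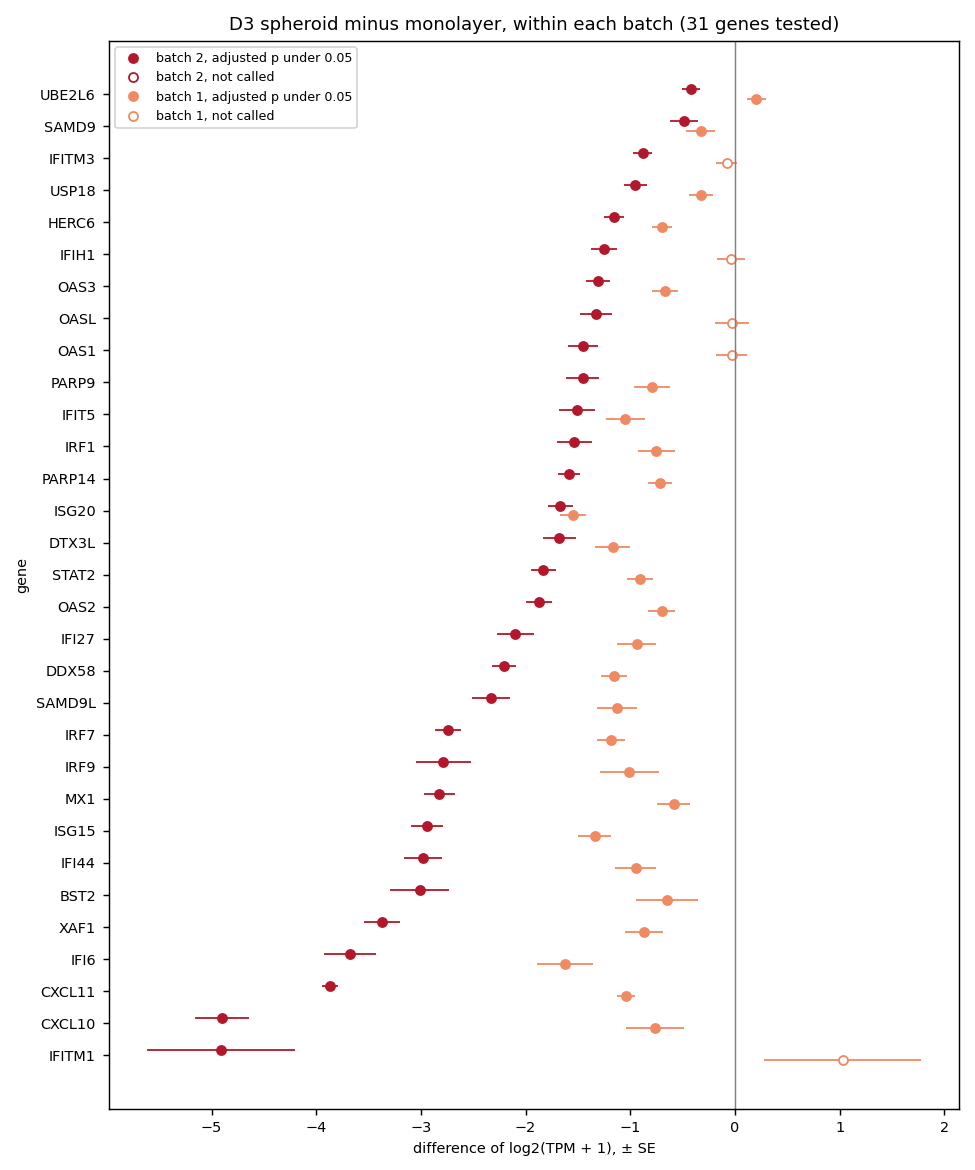
Difference in log2(TPM + 1) between D3 spheroids and monolayers, ± SE, within batch 2 and within batch 1, for the 31 genes tested; filled points have an adjusted p under 0.05. The batch 2 changes are all negative and called and reach -4.91, while in batch 1 UBE2L6 is called higher and 5 genes are not called; after median-of-ratios rescaling IFITM3, IFIH1 and OAS1 are also called higher in batch 1.

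CXCL10 fell furthest among the genes measured in all groups of monolayers. It would not pass the filter on spheroid libraries alone, so a fall was favoured in advance and its p-values give no independent support. It was listed at 0.0, 0.0, 0.7, 0.5 and 0.0 TPM in batch 2 D3 spheroids, against 30.0 to 42.1 TPM in batch 2 monolayers (difference -4.90, limma adjusted p = 4.61e-16). The batch 1 values were 0.0, 0.7, 0.0 and 0.4 TPM in D3 spheroids, against 0.3 to 2.4 TPM in monolayers (difference -0.77, limma adjusted p = 0.014). The D3 spheroids of both batches thus lay at the same low level. The batch 1 groups overlapped and the batch 2 groups did not. CXCL11 was 0.3 TPM or lower in all 9 D3 libraries.

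The ISGF3 genes fell in both batches. STAT2 measured 15.9, 17.1, 19.0, 19.5 and 13.0 TPM in batch 2 D3 spheroids, against 58.7 to 67.8 TPM in the monolayers (difference -1.83). In batch 1 STAT2 measured 15.4, 18.4, 14.1 and 17.1 TPM in D3 spheroids, against 29.2 to 33.3 TPM in monolayers (difference -0.91). D3 spheroids did not overlap with monolayers in either batch. IRF9 measured 16.3, 16.9, 30.8, 25.1 and 7.2 TPM in batch 2 D3 spheroids, against 118.6 to 137.0 TPM in monolayers (difference -2.78). Batch 1 gave IRF9 11.9, 27.3, 6.2 and 9.1 TPM in D3 spheroids, against 21.4 to 27.0 TPM in monolayers (difference -1.01, limma adjusted p = 0.00193). The lowest batch 2 value, 7.2 TPM, was in D3 library 7 and the highest batch 1 value, 27.3 TPM, was in D3 library 4, and only in batch 1 did the groups overlap.

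IRF7 and IRF1 fell in both batches too. IRF7 measured 12.2, 16.0, 19.5, 19.6 and 13.6 TPM in batch 2 D3 spheroids, against 103.8 to 120.1 TPM in monolayers (difference -2.74). For IRF7 the batch 1 values were 10.3, 16.5, 16.2 and 10.6 TPM in D3 spheroids, against 27.3 to 35.5 TPM in monolayers (difference -1.19), and the batches' changes differed by -1.56 (limma adjusted p = 2.29e-07). IRF1 measured 1.7 to 2.3 TPM in batch 2 D3 spheroids, against 7.4 to 8.3 TPM in monolayers, and 1.8 to 2.5 TPM in batch 1 D3 spheroids, against 3.6 to 4.4 TPM in monolayers. D3 spheroids did not overlap with monolayers for IRF7 or IRF1. After rescaling, the batch 1 fall of IRF9 and of IRF1 no longer passed.

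ISG15 and most of its conjugation machinery fell at D3, and the enzyme UBE2L6 differed by batch. ISG15 measured 2.5, 2.1, 2.7, 3.3 and 2.8 TPM in batch 2 D3 spheroids, against 24.8 to 32.3 TPM in monolayers (difference -2.94). In batch 1 ISG15 measured 2.1, 2.7, 2.6 and 1.7 TPM in D3 spheroids, against 6.6 to 8.1 TPM in monolayers (difference -1.34, limma adjusted p = 1.68e-08). Neither batch overlapped. UBE2L6, which conjugates ISG15 to its targets, measured 21.2, 18.3, 20.5, 21.7 and 17.7 TPM in batch 2 D3 spheroids, against 26.4 to 27.9 TPM in monolayers (difference -0.42, limma adjusted p = 6.29e-05, but 0.09 and not called after rescaling). UBE2L6 in batch 1 measured 17.3, 19.9, 17.7 and 16.7 TPM in D3 spheroids, against 14.8 to 16.6 TPM in monolayers, a rise of 0.20 ± 0.090 (limma adjusted p = 0.0424) that no longer passed without D3 libraries 4 and 7 (0.15, adjusted p = 0.14). USP18, which removes ISG15 and damps the type I receptor, measured 0.5, 0.5, 0.8, 0.8 and 1.1 TPM in batch 2 D3 spheroids, against 2.1 to 2.6 TPM in monolayers. The ligases HERC5 and HERC6 were at 0.1 to 0.2 and 0.6 to 0.9 TPM in D3 spheroids, against 0.5 to 1.6 and 1.7 to 3.1 TPM in monolayers.

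The RNA sensors and the 2-5A synthetases fell more in batch 2 than in batch 1, and IFIH1 and OAS1 were called lower in batch 2 only. DDX58 (RIG-I), a sensor of viral RNA, was listed at 0.0 to 0.5 TPM in D3 spheroids, against 3.8 to 4.4 TPM in batch 2 monolayers and 1.1 to 2.0 TPM in batch 1 monolayers. IFIH1 (MDA5), a second such sensor, measured 1.8 to 3.7 TPM in batch 2 D3 spheroids, against 7.2 to 8.2 TPM in monolayers (difference -1.25). In batch 1 IFIH1 measured 2.0 to 3.3 TPM in D3 spheroids, against 1.9 to 3.1 TPM in monolayers (difference -0.04, limma adjusted p = 0.805). The D3 spheroids of the batches held like levels of IFIH1, and only the batch 2 monolayers stood above them. OAS1, which makes the 2-5A signal for RNase L, had the same pattern, at 3.3, 2.7, 4.3, 4.3 and 2.3 TPM in batch 2 D3 spheroids, against 10.2 to 11.6 TPM in monolayers (difference -1.45). For OAS1 the batch 1 values were 2.9, 3.5, 2.2 and 2.5 TPM in D3 spheroids, against 2.4 to 3.2 TPM in monolayers (difference -0.03, limma adjusted p = 0.851). OAS2 and OAS3 fell in both batches (OAS2 by 1.87 in batch 2 and by 0.70 in batch 1, OAS3 by 1.31 and by 0.67). After rescaling, OAS1 and IFIH1 were called higher in batch 1 and the falls of OAS2 and OAS3 there no longer passed.

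Of the membrane proteins, IFITM3 measured 114.8, 128.9, 127.0, 146.5 and 129.9 TPM in batch 2 D3 spheroids, against 218.4 to 267.0 TPM in monolayers (difference -0.88). IFITM3 in batch 1 measured 115.9, 144.4, 133.8 and 122.4 TPM in D3 spheroids, against 129.1 to 140.2 TPM in monolayers (difference -0.08, limma adjusted p = 0.491), so the groups overlapped in batch 1 only. After rescaling, the direction of IFITM3 over both batches turned (0.06, not called). IFITM1 measured 24.5, 0.0, 10.8, 0.6 and 0.0 TPM in batch 2 D3 spheroids, against 84.3 to 115.7 TPM in monolayers (difference -4.91 ± 0.70, limma adjusted p = 3.91e-07). In batch 1 D3 spheroids it was listed at 0.0, 16.3, 0.0 and 0.0 TPM, and all monolayers were listed at 0. The 1 batch 1 spheroid library with IFITM1 was D3 library 4.

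Among the remaining effectors, MX1 measured 1.0, 0.9, 1.9, 1.2 and 0.7 TPM in batch 2 D3 spheroids, against 13.5 to 14.5 TPM in monolayers (difference -2.83), and 0.6 to 1.0 TPM in batch 1 D3 spheroids, against 1.5 to 2.0 TPM in monolayers (difference -0.59). BST2 measured 0.2, 0.4, 0.7, 1.3 and 0.4 TPM in batch 2 D3 spheroids, against 8.8 to 15.1 TPM in monolayers, and 0.2 to 0.7 TPM in batch 1 D3 spheroids, against 0.7 to 1.8 TPM in monolayers. IFI6 measured 6.8, 6.1, 10.4, 8.3 and 4.1 TPM in batch 2 D3 spheroids, against 90.8 to 113.4 TPM in monolayers (difference -3.68), and 4.1, 8.5, 3.4 and 3.9 TPM in batch 1 D3 spheroids, against 14.3 to 18.4 TPM in monolayers (difference -1.62). For IFI6, D3 spheroids lay below monolayers in both batches without overlap, and the batches' changes differed by -2.05 (limma adjusted p = 7.49e-05). IFIT5, the IFIT member that was high in both monolayer batches, fell by 1.51 in batch 2 and by 1.05 in batch 1. DTX3L, an E3 ligase that pairs with PARP9, fell by 1.68 in batch 2 and by 1.17 in batch 1. The interaction test did not separate the batches for either gene. IFI27, IFI44, XAF1, SAMD9L, PARP9, PARP14 and ISG20 were lower in both batches. Among genes under the filter, IFIT1 was at 0 in 8 of 9 D3 libraries and at 0.3 TPM in the other, IFIT3 was at 0 in all, and IFI44L was at most 0.3 TPM, EPSTI1 at most 0.6 TPM, and MX2 at most 0.2 TPM. CMPK2 and RSAD2, neighbouring genes of antiviral nucleotide metabolism, were at most 0.1 TPM in D3 spheroids, against 0.9 to 1.5 and 0.2 to 0.6 TPM in batch 2 monolayers.

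Between D3 and D11 some of the genes rose, led by IFITM1, IFI27 and IFI6, and others fell, led by IFIT5 and IFITM3. Of the 31, 9 were higher and 16 lower in untreated D11 than in D3 spheroids, at a background of 35.3% higher and 38.5% lower over all genes. The median difference was -0.28 over the 31 genes and -0.03 over all genes. The 9 were IFI27, IFITM1, IFI6, IRF7, IRF9, ISG20, OASL, BST2 and SAMD9. Within batch 2, 8 were higher and 15 lower (26.7% and 39% of all genes), and within batch 1, 9 were higher and 12 lower (36.2% and 27.7%). Mitochondrial transcripts took a smaller share at D11, as given above. With them removed from the totals, the all-gene median moved by -0.50 and 7 of the 31 were higher and 20 lower, at a background of 14.5% higher and 69.3% lower. SAMD9 and BST2 lost the call, and IFI44, IFIH1, OAS1 and CXCL11 became lower.

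IFI27, a small interferon-induced membrane protein, measured 26.4, 21.1 and 17.6 TPM in batch 2 untreated D11 spheroids, against 2.0, 3.0, 3.5, 3.6 and 1.1 TPM in D3 spheroids. The batch 1 values of IFI27 were 18.1, 13.7, 22.0 and 25.1 TPM in untreated D11 spheroids, against 1.5, 2.6, 1.2 and 2.3 TPM in D3 spheroids. The lowest D11 library was well above the highest D3 library, and the difference over both batches was 2.76 ± 0.14 (limma adjusted p = 2.64e-16). IFI6 measured 35.4, 35.0 and 22.0 TPM in batch 2 and 38.0, 28.2, 36.7 and 47.4 TPM in batch 1 untreated D11 spheroids, against 3.4 to 10.4 TPM in the 9 D3 libraries (difference 2.36 ± 0.20, limma adjusted p = 1.64e-11). IFI6 did not overlap between the ages in either batch. IFITM1 measured 33.1, 21.3 and 14.6 TPM in batch 2 and 20.7, 14.9, 20.5 and 26.6 TPM in batch 1 untreated D11 spheroids, against 0.0 to 24.5 TPM in D3 spheroids, of which 5 of 9 libraries were listed at 0. D3 library 1, at 24.5 TPM, lay inside the D11 range (difference 3.06 ± 0.57, limma adjusted p = 2.05e-05).

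IRF7 and IRF9 both rose. IRF7 measured 41.4, 47.9 and 40.9 TPM in batch 2 and 59.8, 53.5, 46.8 and 59.9 TPM in batch 1 untreated D11 spheroids, against 10.3 to 19.6 TPM in D3 spheroids (difference 1.69 ± 0.10, limma adjusted p = 7.87e-15). IRF9 measured 46.0, 46.3 and 43.0 TPM in batch 2 and 47.5, 51.5, 53.0 and 57.7 TPM in batch 1 untreated D11 spheroids, against 6.2 to 30.8 TPM in D3 spheroids (difference 1.69 ± 0.21, limma adjusted p = 3.7e-08). Both genes were above all D3 libraries in every untreated D11 library. STAT2, the partner of IRF9, went the other way, at 11.7, 11.3 and 9.4 TPM in batch 2 and 14.4, 15.6, 15.1 and 14.8 TPM in batch 1 untreated D11 spheroids, against 13.0 to 19.5 TPM in D3 spheroids (difference -0.35, limma adjusted p = 0.00174), a fall that did not pass with an additive batch term (-0.29, adjusted p = 0.125). Its groups overlapped in batch 1 and not in batch 2. ISG20 measured 4.5 to 7.7 TPM in untreated D11 spheroids, against 1.2 to 2.7 TPM in D3 spheroids (difference 1.43 ± 0.095, limma adjusted p = 8.54e-14).

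Of the 16 genes that fell, IFIT5 fell the most. It measured 2.2, 4.4 and 3.8 TPM in batch 2 and 4.5, 4.8, 5.7 and 6.0 TPM in batch 1 untreated D11 spheroids, against 13.4 to 18.1 TPM in D3 spheroids (difference -1.59 ± 0.14, limma adjusted p = 3.1e-11). IFITM3 measured 52.1, 48.5 and 37.3 TPM in batch 2 and 50.3, 45.2, 49.8 and 52.8 TPM in batch 1 untreated D11 spheroids, against 114.8 to 146.5 TPM in D3 spheroids (difference -1.42 ± 0.076, limma adjusted p = 6.84e-16). IFITM1 and IFITM3, neighbours of the same family, thus moved in opposite directions. OAS2 measured 2.6 to 4.8 TPM in untreated D11 spheroids, against 9.0 to 12.1 TPM in D3 spheroids (difference -1.28 ± 0.098, limma adjusted p = 1.75e-12), and OAS3 measured 5.6 to 8.4 TPM, against 13.8 to 17.4 TPM. OASL, a family member without synthetase activity, rose (difference 0.68, limma adjusted p = 1.29e-05). UBE2L6 measured 9.9 to 13.9 TPM in untreated D11 spheroids, against 16.7 to 21.7 TPM in D3 spheroids, and ISG15 measured 0.8 to 1.4 TPM, against 1.7 to 3.3 TPM. IFIT5, IFITM3, OAS2, OAS3, UBE2L6 and ISG15 did not overlap between the ages. IRF1, MX1, USP18, HERC6, SAMD9L, XAF1, PARP9, PARP14 and DTX3L also fell. With an additive batch term the falls of PARP14 (adjusted p = 0.0992), XAF1 (0.504) and MX1 (0.656) no longer passed. The MX1 call (-0.28, limma adjusted p = 0.0379) was lost when any of 9 single libraries was left out (D3 2, 4, 5, 6 or 9, untreated D11 2, 3, 4 or 7; -0.31 to -0.22), and the BST2 rise (0.65, limma adjusted p = 0.0111) was lost without untreated D11 library 6 (0.48). CXCL10, CXCL11, IFI44, IFIH1, OAS1 and DDX58 were not called.

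The D11 change was not shown to differ by batch. None of the 31 genes passed the limma interaction test for untreated D11 against D3, and 6 did at an unadjusted p under 0.05. Over all genes 0.565% were positive and 5.62% negative. Without D3 libraries 4 and 7, 8 genes passed, all more negative in batch 2, at 21.4% negative over all genes. Those 8 were IRF9, OAS1, IRF7, ISG20, OASL, IFI6, STAT2 and UBE2L6, with IRF9 furthest at -1.41 (limma adjusted p = 0.000256).

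Set against the monolayers, the untreated D11 spheroids were lower for most genes, and for 6 genes the direction depended on the batch. The comparison shares its D11 libraries with the preceding one and its monolayers with that at D3. Averaged over the batches, 24 of the 31 genes were lower and 1, IFI27, was higher, at a background of 65.4% lower and 21.6% higher, with a median of -1.59 against -0.49 over all genes. Within batch 2, 29 were lower and 1 higher (64.8% and 17.7% of all genes), and for 29 every D11 library lay below every monolayer, as for 63.8% of all genes. Within batch 1, 20 were lower and 7 higher (57.4% and 23.5%), and 19 lay below without overlap (55.7%). The batch changes differed for 29 genes by the interaction test, all more negative in batch 2, and SAMD9 and IRF1 were not called. Over all genes 27.3% were negative and 13.1% positive. This test too contains the batch difference of the monolayers. After rescaling, which moved the all-gene median by 0.49, 22 were lower and 6 higher over both batches, at 41.8% each way over all genes. With mitochondrial transcripts removed, which moved it by -0.53, 29 were lower and 1 higher, at 80.1% lower and 12.5% higher over all genes. With an additive batch term the falls of IRF7 (adjusted p = 0.407) and OAS1 (adjusted p = 0.0563) over both batches no longer passed.

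IFITM1, IFI6, OASL, IRF7, OAS1 and IRF9 were higher in untreated D11 spheroids than in monolayers in batch 1 and lower in batch 2. Over all genes 23.5% were higher in batch 1 and 64.8% lower in batch 2. The share of all genes with both calls was not counted, so whether these genes are unusual in this cannot be told. IFI6 measured 35.4, 35.0 and 22.0 TPM in batch 2 D11 spheroids, against 90.8 to 113.4 TPM in monolayers (difference -1.69, limma adjusted p = 4.77e-06). In batch 1 it measured 38.0, 28.2, 36.7 and 47.4 TPM in D11 spheroids, against 14.3 to 18.4 TPM in monolayers (difference 1.12, limma adjusted p = 0.000367). The D11 values of the batches overlapped, and it was the monolayers that lay apart on either side of them. IRF7 changed by -1.35 in batch 2 and by 0.80 in batch 1 (limma adjusted p = 1.27e-09 and 3.43e-06), and its average over batches was -0.28, or 0.32 after rescaling. IRF9 changed by -1.46 in batch 2 and by 1.05 in batch 1 (limma adjusted p = 7.69e-05 and 0.00117), and OAS1 by -1.54 and 0.48. IFITM1 fell by 2.18 in batch 2, and in batch 1 it was at 14.9 to 26.6 TPM in D11 spheroids, against 0 in all monolayers.

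IFI27 was higher in both batches, at 17.6 to 26.4 TPM in batch 2 D11 spheroids, against 13.7 to 14.6 TPM in monolayers (difference 0.58, limma adjusted p = 0.0102). In batch 1 it measured 13.7 to 25.1 TPM in D11 spheroids, against 3.2 to 5.1 TPM in monolayers (difference 1.89). Its batch 2 rise no longer passed with mitochondrial transcripts removed and turned in sign (-0.05, adjusted p = 0.808). The furthest below monolayers over both batches were SAMD9L (-2.89), IFIT5 (-2.87 ± 0.14, limma adjusted p = 8.44e-18) and ISG15 (-2.82 ± 0.12, limma adjusted p = 4e-19). ISG15 lay at 0.8 to 1.4 TPM in untreated D11 spheroids, against 6.6 to 32.3 TPM in monolayers, with no overlap in either batch.

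Most of the genes were higher in IL-13-treated than in untreated D11 spheroids, led by IFIT5, IRF1 and UBE2L6, and a few, among them IFI27, were lower. The untreated libraries here are those used above against D3. Of the 31, 19 were higher and 5 lower in IL-13 than in untreated D11 spheroids, at a background of 38.4% higher and 10.3% lower over all genes. The median difference was 0.48 over the 31 genes and 0.16 over all genes. The groups did not overlap for 5 genes above, UBE2L6, IFIT5, IFIH1, HERC6 and DDX58, and for 1 below, IFI27, against 9.66% and 4.03% of all genes. For HERC6 (lowest IL-13 library 0.3 TPM, highest untreated 0.2 TPM) and DDX58 (0.2 and 0.1 TPM) the gap was the smallest that values rounded to 1 decimal can show. IL-13 library 1 was the lowest of the 6 for IFIT5, IRF1, UBE2L6, DTX3L, PARP9, STAT2, ISG15 and MX1. Without it 21 were higher and 5 lower (51.7% and 10.1% of all genes), with IFITM3 and USP18 added. Rescaling moved the all-gene median by -0.16 and left 16 higher and 5 lower (21.3% and 22.4% of all genes), taking the call from IFI44, OAS3 and BST2. With only the batch 1 untreated libraries as the comparison, an alternative chosen after seeing the data, 17 were higher and 5 lower (29.2% and 9.5% of all genes). With an additive batch term IFI44 was no longer called higher (adjusted p = 0.0841). Under that term IFI6 (adjusted p = 0.112) and IRF7 (0.639) were no longer called lower, which left 3 lower. Whether the effect differed by batch was not tested, since the IL-13 columns could not be matched to batches.

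**Figure D4:**
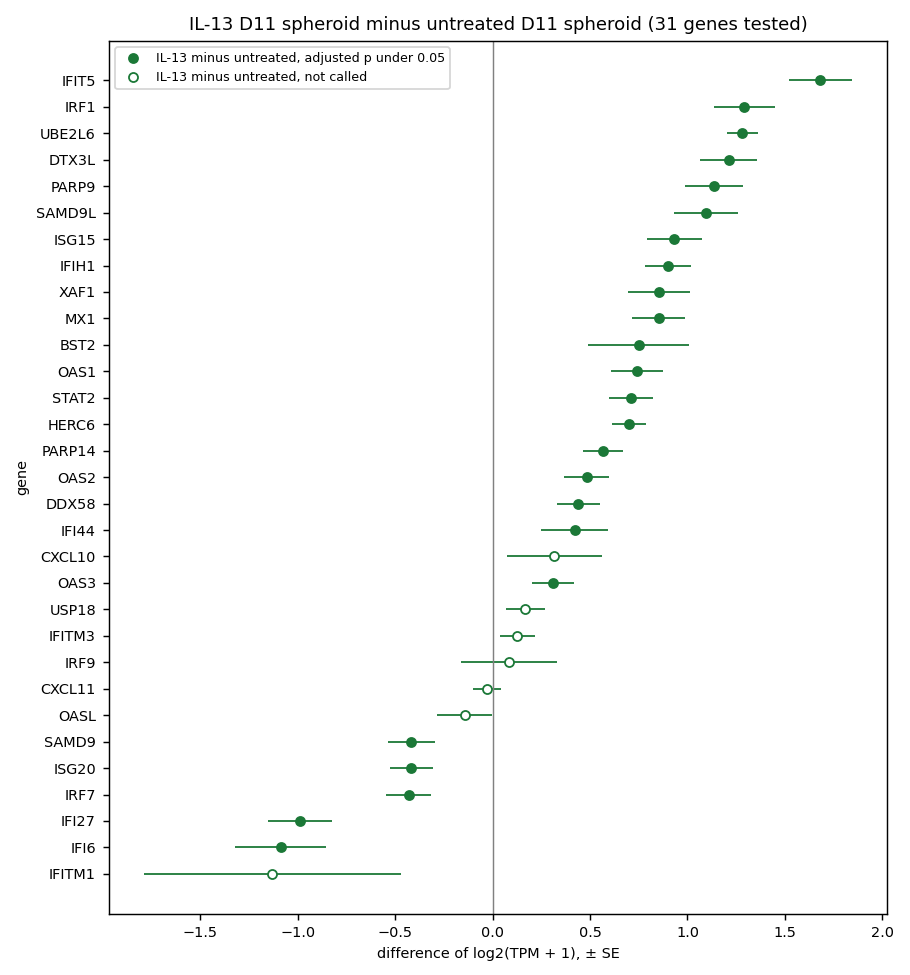
Difference in log2(TPM + 1) between IL-13 and untreated D11 spheroids, ± SE, for the 31 genes tested; filled points have an adjusted p under 0.05. IFIT5 lies furthest right at 1.68, with IRF1 at 1.29 and UBE2L6 at 1.28 next. IFI6, IFI27, IRF7, ISG20 and SAMD9 are the 5 called lower. IFI44, OAS3 and BST2 lose their call on rescaling, and IFI44, IFI6 and IRF7 lose theirs with an additive batch term.

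IFIT5 rose the most. It measured 8.1, 19.7, 17.8, 21.4, 19.9 and 25.7 TPM in the IL-13 libraries, against 2.2 to 6.0 TPM in the 7 untreated libraries, whose median was 4.5. Every IL-13 library lay above every untreated one, and the difference was 1.68 ± 0.16 (limma adjusted p = 1.99e-09). IRF1 measured 1.4, 4.5, 5.3, 5.7, 4.2 and 5.6 TPM with IL-13, against 0.7 to 1.6 TPM untreated with a median of 1.1 (difference 1.29 ± 0.16, limma adjusted p = 1.36e-07). Only IL-13 library 1 lay within the untreated range. UBE2L6 measured 23.4, 33.8, 32.6, 36.4, 33.1 and 36.4 TPM with IL-13, against 9.9 to 13.9 TPM untreated with a median of 12.9 (difference 1.28 ± 0.079, limma adjusted p = 1.83e-13). The groups did not overlap, and the IL-13 level of this gene, except in library 1, exceeded that in every other group of the study.

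DTX3L and its partner PARP9, which form an ADP-ribosylating complex, both rose. DTX3L measured 21.2, 50.3, 52.7, 49.8, 51.4 and 56.6 TPM with IL-13, against 13.7 to 22.3 TPM untreated with a median of 17.5 (difference 1.21 ± 0.15, limma adjusted p = 1.27e-07). PARP9 measured 2.2, 6.6, 6.5, 6.6, 6.7 and 8.1 TPM with IL-13, against 1.4 to 2.6 TPM untreated (difference 1.14, limma adjusted p = 5.33e-07). For both, library 1 alone overlapped with the untreated libraries. PARP14, a mono-ADP-ribosyltransferase known as a cofactor of STAT6 in mouse B cells, measured 7.7, 12.3, 15.0, 13.9, 13.3 and 16.0 TPM with IL-13, against 6.4 to 8.8 TPM untreated (difference 0.57 ± 0.10, limma adjusted p = 5.15e-05). STAT2 measured 14.7, 27.4, 27.4, 25.8, 24.3 and 26.3 TPM with IL-13, against 9.4 to 15.6 TPM untreated (difference 0.71 ± 0.11, limma adjusted p = 7.4e-06). Its overlap was again due to library 1. IRF9 was at 39.3 to 67.7 TPM with IL-13 and 43.0 to 57.7 TPM untreated (difference 0.09, limma adjusted p = 0.798).

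The antiviral effectors rose from low levels. ISG15 measured 1.3, 3.9, 3.8, 3.7, 4.5 and 2.9 TPM with IL-13, against 0.8 to 1.4 TPM untreated (difference 0.93 ± 0.14, limma adjusted p = 4.16e-06). MX1 measured 0.6, 2.6, 2.1, 2.3, 2.1 and 2.6 TPM with IL-13, against 0.4 to 0.7 TPM untreated (difference 0.85 ± 0.14, limma adjusted p = 1.25e-05). In both genes the 5 other IL-13 libraries lay above all untreated libraries and library 1 lay within them. SAMD9L measured 0.9, 2.9, 3.3, 3.2, 3.7 and 5.1 TPM with IL-13, against 0.5 to 1.6 TPM untreated (difference 1.10 ± 0.17, limma adjusted p = 4.61e-06). OAS1 measured 4.7, 8.0, 7.9, 9.5, 7.3 and 8.6 TPM with IL-13, against 2.5 to 4.9 TPM untreated (difference 0.74 ± 0.13, limma adjusted p = 5.18e-05), and OAS2 rose by 0.48. IFIH1 measured 3.6, 6.0, 5.9, 5.6, 6.0 and 7.0 TPM with IL-13, against 2.2 to 2.9 TPM untreated (difference 0.90, limma adjusted p = 3.86e-07). Its groups did not overlap. DDX58 measured 0.2, 0.3, 0.3, 0.6, 0.6 and 0.4 TPM with IL-13, against 0.0 to 0.1 TPM untreated (difference 0.44 ± 0.11, limma adjusted p = 0.00157). BST2 measured 0.8, 4.4, 1.2, 3.3, 4.0 and 3.3 TPM with IL-13, against 0.2 to 2.9 TPM untreated (difference 0.75 ± 0.26, limma adjusted p = 0.0192). That call was lost on rescaling (adjusted p = 0.0545) and when untreated library 2 or 3 or IL-13 library 2 or 5 was left out. HERC6, XAF1, IFI44 and OAS3 were also higher.

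The 5 genes lower with IL-13 were IFI27, IFI6, IRF7, ISG20 and SAMD9. IFI27 measured 9.3, 10.2, 9.7, 10.8, 7.6 and 9.0 TPM with IL-13, against 13.7 to 26.4 TPM untreated with a median of 21.1 (difference -0.99 ± 0.16, limma adjusted p = 1.81e-05). No IL-13 library reached the untreated range. IFI6 measured 7.0, 29.3, 18.9, 21.0, 13.9 and 15.9 TPM with IL-13, against 22.0 to 47.4 TPM untreated with a median of 35.4 (difference -1.09 ± 0.23, limma adjusted p = 0.000393). IRF7 measured 34.0, 37.3, 38.9, 43.9, 44.0 and 35.7 TPM with IL-13, against 40.9 to 59.9 TPM untreated with a median of 47.9 (difference -0.43 ± 0.12, limma adjusted p = 0.0034). The groups overlapped for IFI6 and IRF7, and both calls were lost with an additive batch term (-0.73, adjusted p = 0.112, and -0.16, adjusted p = 0.639). ISG20 measured 4.2 to 6.2 TPM with IL-13, against 4.5 to 7.7 TPM untreated (difference -0.42 ± 0.11, limma adjusted p = 0.00286). SAMD9 measured 18.0, 26.7, 26.7, 25.7, 27.1 and 38.4 TPM with IL-13, against 30.9 to 41.2 TPM untreated (difference -0.42, limma adjusted p = 0.00621). IFITM1 measured 11.3, 3.8, 15.5, 7.0, 7.0 and 13.5 TPM with IL-13, against 14.6 to 33.1 TPM untreated, a difference of -1.13 ± 0.66 that did not pass (limma adjusted p = 0.157). IFITM3, USP18, OASL, CXCL10 and CXCL11 were not called either, and CXCL11 was listed at 0 in all 6 IL-13 libraries. Of the genes under the filter, IFIT1, IFIT2, IFIT3 and CMPK2 were listed at 0 in every D11 library, treated or not. IFI44L was at most 0.2 TPM with IL-13, against 0.2 to 0.7 TPM untreated, and EPSTI1 was at 0.5 to 0.9 TPM, against 0.3 to 0.6 TPM.

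Fewer genes differed between the batches in spheroids than in monolayers. In D3 spheroids none of the 31 genes differed between batch 2 and batch 1 by limma, with 1 at an unadjusted p under 0.05, and over all genes 0% were called and 9.97% had an unadjusted p under 0.05. No gene of the 31 separated the batches without overlap, as 0.0655% of all genes did upward. This comparison rests on D3 libraries 4 and 7. Without them 7 genes were higher in batch 2, at 14.1% of all genes. They were IRF9 (1.20 ± 0.18, limma adjusted p = 1.59e-05), IFITM1, IFI6, IFI27, OASL, ISG20 and IRF7. In untreated D11 spheroids 2 genes, STAT2 and UBE2L6, were lower in batch 2 (27% of all genes lower, 2.92% higher), by 0.44 and 0.29 (limma adjusted p = 0.0227 and 0.0324), and neither passed after rescaling. For 6 of the 31, STAT2, UBE2L6, PARP14, DTX3L, IRF9 and IFIT5, every batch 2 D11 library lay below every batch 1 library, as for 39.4% of all genes, and none lay above (5.88%).

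Outside the 40 genes, a list of 59 further interferon pathway symbols in the table, of which 51 were tested, was read for ligands, receptors, factors and inhibitors. Of these 51, 37 were lower and 6 higher in D3 spheroids than in monolayers, against 70.6% lower and 13.5% higher over all genes. In untreated D11 spheroids 25 were lower and 15 higher than in D3 spheroids, against 38.5% and 35.3%. With IL-13, 35 were higher and 4 lower than untreated, against 38.4% and 10.3%. The batch 2 monolayers were higher than those of batch 1 for 28 and lower for 3, against 24.7% and 31.7%.

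Of the ligands, 2 had marked levels. IFNK, a type I interferon of keratinocytes, was listed at 0 in 5 of the 6 IL-13 libraries and at 0.6 TPM in the other, against 19.7 to 21.3 TPM in batch 2 and 24.3 to 44.4 TPM in batch 1 untreated D11 spheroids (difference -4.86 ± 0.12, limma adjusted p = 1.49e-23). It was at 0 in all 9 D3 libraries and at most 0.3 TPM in monolayers. Only the untreated D11 spheroids held it at more than 0.6 TPM. IFNE, a type I interferon best known from the epithelium of the female reproductive tract, measured 4.8 to 9.5 TPM in D3 spheroids, against 27.9 to 53.6 TPM in batch 2 and 17.7 to 32.4 TPM in batch 1 monolayers (difference -1.96 ± 0.19, limma adjusted p = 1.39e-10). IFNB1 was low throughout, at 0.0 to 2.6 TPM with IL-13 and 0.0 to 1.2 TPM in untreated D11 spheroids, at 0 in all D3 libraries and at most 0.9 TPM in monolayers. IFNA1, one of a family of close relatives, was at 0.0 to 7.1 TPM with IL-13, 0.7 to 7.2 TPM in untreated D11 spheroids, 0.0 to 1.6 TPM in D3 spheroids and 0.0 to 6.2 TPM in monolayers. The receptor chain IFNAR1 measured 8.1 to 10.2 TPM in D3 spheroids, against 12.5 to 17.7 TPM in monolayers, whereas IFNAR2, its partner, was listed at 0 in all libraries but 1. The type III receptor IFNLR1 measured 5.4 to 6.0 TPM in D3 spheroids, against 13.1 to 15.9 TPM in monolayers. SOCS1, an inhibitor of JAK kinases, measured 145.9 to 210.7 TPM with IL-13, against 47.4 to 73.9 TPM untreated (difference 1.64 ± 0.14, limma adjusted p = 2.11e-10).

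**Figure D5:**
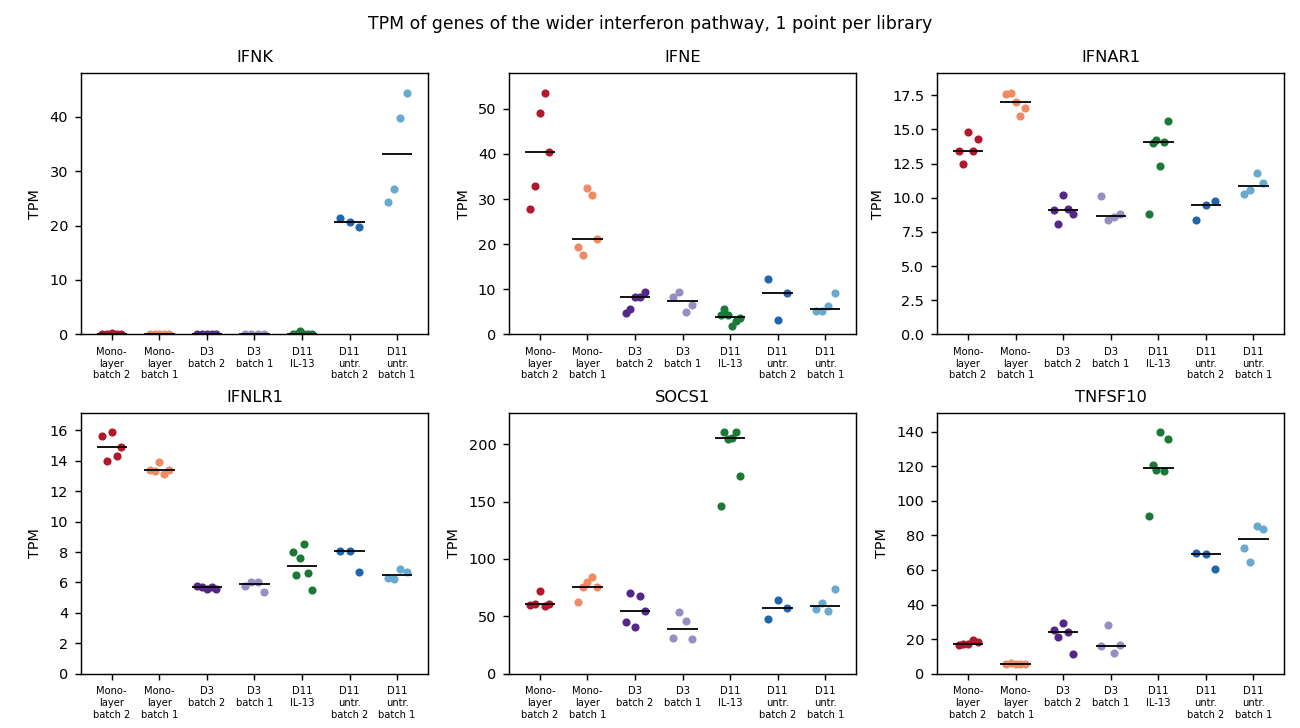
TPM of 6 genes of the interferon pathway outside the 40 (IFNK, IFNE, IFNAR1, IFNLR1, SOCS1, TNFSF10) in each library (points), by group and batch, with the median as a line. IFNK is above 0.6 TPM in untreated D11 spheroids only, and SOCS1 and TNFSF10 are highest with IL-13.

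Of the further induced genes, TNFSF10 (TRAIL), a death receptor ligand, was called higher with IL-13 (0.67), at D11 (1.84) and, over both batches, at D3 (0.85), though not at D3 within batch 2 (0.26, limma adjusted p = 0.194). It measured 91.3 to 139.8 TPM with IL-13 and 60.7 to 85.3 TPM in untreated D11 spheroids, 11.3 to 29.6 TPM in D3 spheroids, and 16.7 to 19.4 TPM in batch 2 and 5.4 to 6.2 TPM in batch 1 monolayers. APOL1, an apolipoprotein of innate immunity, measured 64.3 to 95.2 TPM with IL-13, against 13.6 to 20.4 TPM untreated (difference 2.37, limma adjusted p = 2.68e-10). NMI, a partner of STAT proteins, measured 2.4 to 12.4 TPM with IL-13, against 0.5 to 1.2 TPM untreated (difference 2.12, limma adjusted p = 2.88e-10). CD274 (PD-L1) measured 1.6 to 3.0 TPM in D3 spheroids, against 11.7 to 16.7 TPM in monolayers (difference -2.40). SOCS3 measured 1.7 to 9.7 TPM in D3 spheroids, against 94.7 to 105.8 TPM in batch 2 and 28.8 to 35.2 TPM in batch 1 monolayers (difference -3.34). DHX58 (LGP2), the third RNA sensor of the RIG-I family, measured 17.1 to 20.4 TPM in batch 2 and 4.3 to 5.3 TPM in batch 1 monolayers (difference 1.80), the same order of batches as DDX58 and IFIH1.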

How the data were processed

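RNA levels were measured in 32 libraries. The authors deposited 1 table of TPM values for 19345 gene symbols, rounded to 1 decimal, for which the submitters' processing notes name build hg38. Which aligner, quantifier and annotation they used, and whether strand was read, is not given in the sources used here. Because TPM is a share of each library, a rise of abundant transcripts lowers all others, and depth is unknown. Of the columns, 26 were matched to 1 sample by name and the 6 IL-13 columns, numbered otherwise than their samples, to the group. Library numbers are column numbers. No pair of libraries shared more than 3.56% equal values.

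Values were taken as log2(TPM + 1) and genes that reached 1 TPM in 6 or more libraries entered the fit. limma 3.58.1 (R 4.3.3, intensity trend) fitted 1 mean per group and batch, with the IL-13 group as 1 mean, over all 32 libraries. Contrasts were averaged over batches, taken within batches, or taken as the difference between batches. For IL-13, the untreated batch means were weighted 5 to 1 in sixths. P-values were adjusted by Benjamini-Hochberg over all genes, with a threshold of 0.05, and the fit was tested on simulated data. Genes given by value were a fixed set covering the roles, plus the largest changes of each comparison. The 40 genes, the further pathway list and the tests were chosen with earlier results of these data known. Promoters came from RefSeq and gene spans from GENCODE 29. Alternatives covered the pseudocount, filter, scaling, batch term, libraries fitted, library weights, a replicate block and single libraries left out. Same-numbered libraries of different groups did not deviate together (21 pairs, r -0.056 to 0.098), so numbers were not taken as pairs. One part of the culture protocol and 1 gene of the further pathway list are not reported here. Python 3.11.15 and matplotlib 3.10.9 were used for the figures.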

Additional observations from a re-analysis of the deposited data

Results flagged for a closer look

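In 13 of 90 group and gene combinations checked, 1 library stood apart from the rest of its group. The rule compared its gap to the nearest library with the range of the group. No chance rate applies, since values are rounded and a lone value above 0 is always flagged. The monolayers were also pooled over batches that lie apart. IL-13 library 1 was low for 5 genes. It had 1.4 TPM of IRF1 (others 4.2 to 5.7), 0.6 TPM of MX1 (others 2.1 to 2.6), 3.4 TPM of OAS2 (others 6.0 to 7.2), 14.7 TPM of STAT2 (others 24.3 to 27.4) and 23.4 TPM of UBE2L6 (others 32.6 to 36.4). This is the library that also lay apart on the first principal component, and the IL-13 counts with and without it stand in the text above.

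Among D3 spheroids, BST2 was at 1.3 TPM in library 6 (others 0.2 to 0.7), IFIT1 at 0.3 TPM in library 5 (others 0), IFIT5 at 18.1 TPM in library 1 (others 13.4 to 15.1) and MX1 at 1.9 TPM in library 5 (others 0.6 to 1.2). In untreated D11 spheroids, CXCL11 was at 0.1 TPM in library 1 (others 0), MX1 at 0.4 TPM in library 7 (others 0.6 to 0.7) and SAMD9L at 1.6 TPM in library 5 (others 0.5 to 0.9). In monolayers, IFIT2 was at 0.2 TPM in library 10 (others 0).

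The change from monolayer differed between the batches for 27 of the 31 genes at D3 and for 29 of the 31 in untreated D11 spheroids, by the interaction test. In each case the change in batch 2 was the more negative one. Over all genes the test was negative for 16.2% and positive for 20.1% at D3. In untreated D11 spheroids these shares were 27.3% and 13.1%. Both tests contain the batch difference of the monolayers and are not independent of it.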

How the results depend on the processing

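Of 4876 values of named genes recomputed under an alternative, 4788 kept their direction and their side of the threshold, 43 lost a call, 38 gained one and 7 turned in sign. The cause of these changes was not tested. The 7 were IFITM3 (0.064) and UBE2L6 (0.41) at D3 against monolayer and IRF7 (0.32) and ISG20 (0.35) at D11 against monolayer on median-of-ratios rescaling, UBE2L6 (0.36) and ISG20 (0.33) in the same comparisons on quantile normalization, and OAS1 at D11 against D3 (-0.27) with mitochondrial transcripts removed.

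Counts of the 31 genes that moved by over 1.5 times were as follows. A percentage in brackets is the share of all genes called the same way. For settings without one, here and below, that share is not given. At D3 against monolayer 1 gene was higher on rescaling (35.3%) and 1 on quantile normalization. Within batch 1 that count was 4 on rescaling (28.5%), 4 on quantile normalization and 0 with a pseudocount of 5. It was also 0 with no filter (7.88%) or without D3 libraries 4 and 7 (9.13%), and 16 genes were lower on rescaling (30.5%). At D11 against D3, the batches' changes differed for 1 gene with a pseudocount of 0.1, 1 with a filter of 5 TPM (22 tested) and 1 with only the groups compared. They differed for 11 with library weights and 8 without D3 libraries 4 and 7 (21.4% negative, 2.88% positive). At D11 against monolayer the genes higher numbered 2 with a pseudocount of 0.1, 6 on rescaling (41.8%) and 5 on quantile normalization. They numbered 3 with only the groups compared, 3 with library weights and 2 without D3 libraries 4 and 7 (22%). In batch 1 they numbered 11 on either rescaling (40.1% on median of ratios), and 13 were lower with a filter of 5 TPM. In batch 2 they numbered 2 on either rescaling (37.9% on median of ratios) and 0 with mitochondrial transcripts removed (10.1%). With IL-13, 3 genes were lower with an additive batch term and 3 with no batch term. Between batches, D3 spheroids gave 4 genes higher with library weights and 7 without D3 libraries 4 and 7 (14.1%). Untreated D11 spheroids gave 4 lower with a pseudocount of 0.1, 1 with a pseudocount of 5 and 0 on either rescaling (10.6% on median of ratios). They gave 5 lower with mitochondrial transcripts removed (28.9%) and 10 with library weights.

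With the library number as a replicate block, which the check above does not support as a pairing, 0 genes were higher at D3 within batch 1, 5 were lower in batch 2 untreated D11 spheroids, and ISG20 lost its call between monolayer batches (adjusted p = 0.0916).

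Leaving out single libraries gave 0 to 6 genes for the batch difference at D11 against D3, 0 to 1 higher between D3 batches, 0 to 1 higher at D3 within batch 1, 1 to 2 higher at D11 against monolayer, 0 to 1 of these in batch 2, and 0 to 8 lower between untreated D11 batches. The libraries behind these shifts were D3 1, 4, 7 and 8, untreated D11 2 to 7, IL-13 1, 4 and 6 and monolayer 1, 2, 5 and 7. TPM keeps no depth, so the error of values below 1 TPM is known from the spread alone.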
